A study of Oryza sativa with 8 samples.

Results

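The DREB1 and DREB2 genes of rice were followed across 8 RNA sequencing libraries from seedlings. These genes encode transcription factors of the AP2/ERF family that bind the dehydration-responsive element in the promoters of stress genes. The members were 9 loci taken by locus identifier, namely DREB1A, DREB1B, DREB1C, DREB1E, DREB1F, DREB1G, DREB1H, DREB2A and DREB2B, and all 9 had a row among the 34119 loci of the deposited table. The libraries came from 14-day-old seedlings grown with 10 h of light a day. They form 3 groups: the SDG708 knockdown line 708Ri-1-1 after 3 h in 20% polyethylene glycol 8000 (708RNAi_PEG, n = 3), wild-type after the same treatment (WT_PEG, n = 2), and wild-type without treatment (WT_control, n = 3). The title of the series calls the wild-type NIP. Polyethylene glycol (PEG) lowers the water potential of the medium and so withdraws water from the plant. SDG708 is a SET-domain gene of the histone methyltransferase family, and 1 RNAi line stands for the knockdown. The level of SDG708 itself was not analysed here, so the knockdown was not checked. An untreated RNAi group was not analysed here either, so the response of the line to PEG cannot be told apart from a difference it already had.

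In textbook accounts the DREB1 proteins, also called CBF, act mainly in the cold response, where their genes are switched on within hours and in turn switch on protective proteins and sugar metabolism. DREB2 proteins act mainly under drought and heat. In Arabidopsis the DREB2A protein is unstable until stress, so its transcript level is only part of its control. In rice DREB2B is spliced in alternative ways that decide whether a working protein is made, and values per gene do not separate these forms.

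Levels are given as FPKM, a read level divided by gene length and sequencing depth that the authors computed. The values step in units of 1 read, and reads were recovered from these steps. Recovered reads ran from 30818021 to 49707922 per library in 708RNAi_PEG, from 34393100 to 36371459 in WT_PEG and from 34197101 to 37262837 in WT_control. Differences were tested with limma on log2(FPKM + 1) over the 20943 genes with at least 1 FPKM in at least 2 libraries. A gene was called where the Benjamini-Hochberg adjusted p was under 0.05. Of the 9 genes 6 passed this filter, and DREB1E, DREB1F and DREB1G did not. DREB1H passed only through 2 of its 708RNAi_PEG libraries. DREB1C passed only through its PEG-treated libraries. Nothing in the labels tells whether replicates were separate plants or repeat preparations, and p-values here cover only the variation among these libraries, possibly technical. The libraries are bulk samples of seedlings, in which fewer cells of a type and less RNA per cell cannot be told apart.

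Among the DREB1 genes DREB1C was the one that moved most under PEG. DREB1C (LOC_Os06g03670, chromosome 6) had 52.4, 45.6 and 57.7 FPKM in the 708RNAi_PEG libraries, 18.0 and 20.5 FPKM in the WT_PEG libraries, and 0.636, 0.658 and 0.717 FPKM in the WT_control libraries. The 3 groups did not overlap, and the untreated libraries held 28, 30 and 33 reads of it. In wild-type DREB1C rose 28.7-fold under PEG in mean FPKM (log2 fold change 3.60 ± 0.09 SE, limma adjusted p = 1.2e-09). Under PEG it was 2.70-fold higher in the RNAi line than in wild-type (1.38 ± 0.09 SE, limma adjusted p = 6.9e-06). Both calls were kept in each of the 16 alternative settings, where the log2 fold change lay between 3.51 and 4.82 under PEG and between 1.26 and 1.47 in the RNAi comparison.

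**Figure D1:**
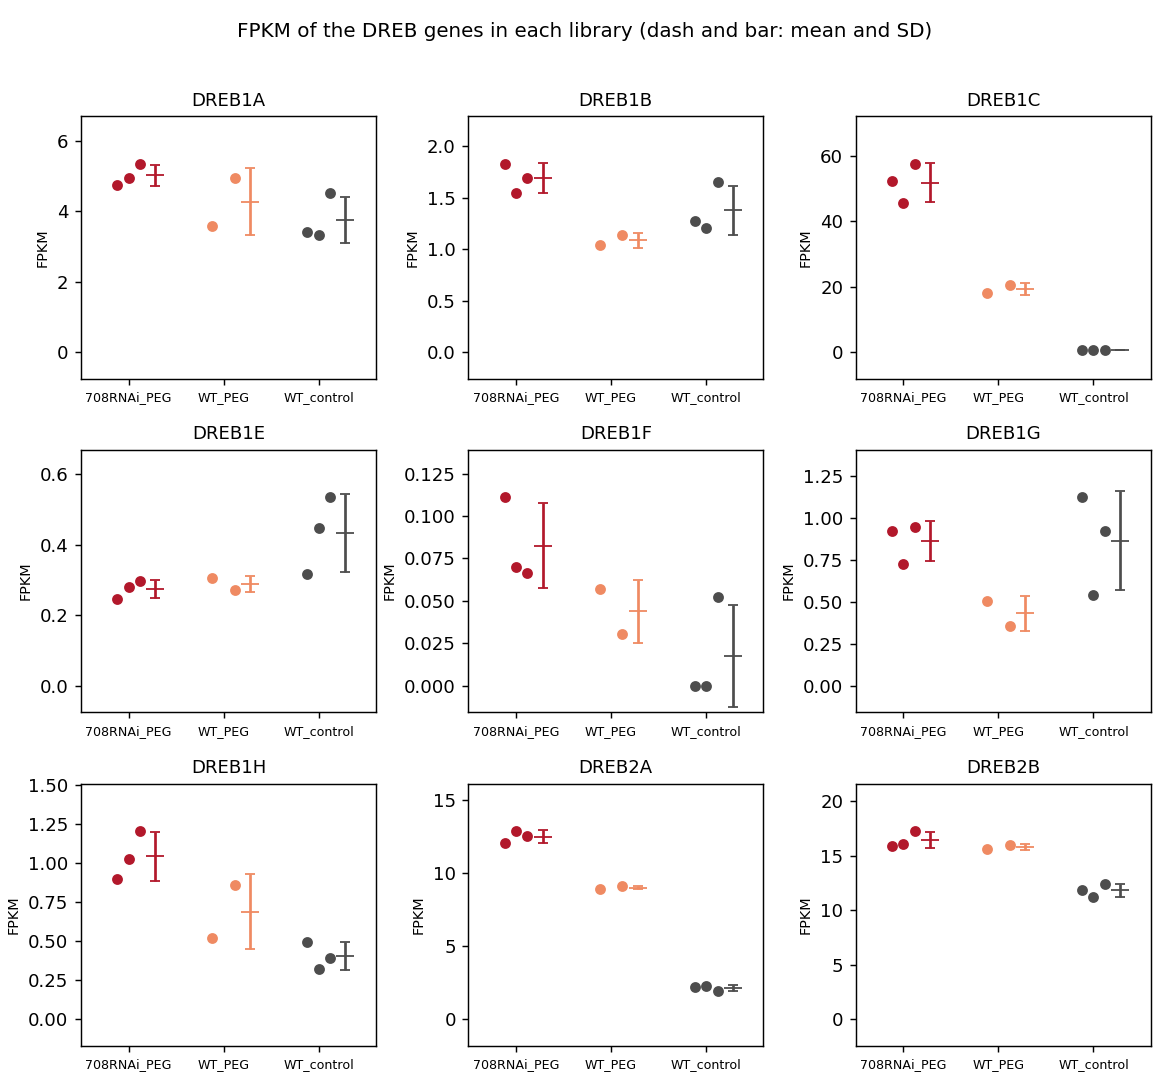
FPKM (y axis, linear and different in each panel) of the 9 DREB genes in every library, with points for libraries and a dash with a bar for the mean and SD of 708RNAi_PEG (n = 3), WT_PEG (n = 2) and WT_control (n = 3). DREB1C and DREB2A step down from 708RNAi_PEG to WT_PEG to WT_control without overlap, DREB2B separates only the treated from the untreated libraries, and DREB1F stays at or below 0.111 FPKM.

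DREB1A, DREB1B and DREB1H lie next to each other on chromosome 9 with DREB1H in the middle, in 3 consecutive rows of the RefSeq table. Their sequences are similar, so how reads were shared out among the 3 is uncertain. DREB1A (LOC_Os09g35030), a cold-inducible member in rice, had 4.75, 4.95 and 5.35 FPKM in 708RNAi_PEG, 3.59 and 4.95 FPKM in WT_PEG, and 3.41, 3.32 and 4.51 FPKM in WT_control. WT_PEG replicate 1 lay within the WT_control range and replicate 2 within that of 708RNAi_PEG. DREB1A was not called under PEG in wild-type (log2 fold change 0.15 ± 0.13 SE, limma adjusted p = 0.32) nor in the RNAi line against PEG-treated wild-type (0.20 ± 0.13 SE, limma adjusted p = 0.25). Without WT_PEG replicate 2 its log2 fold change under PEG turned to -0.039. Its RNAi log2 fold change was 0.015 without WT_PEG replicate 1 and 0.39 without WT_PEG replicate 2 (limma adjusted p = 0.95 and 0.072).

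DREB1B (LOC_Os09g35010), also known as a cold-inducible gene, had 1.83, 1.54 and 1.69 FPKM in 708RNAi_PEG, 1.04 and 1.14 FPKM in WT_PEG, and 1.28, 1.21 and 1.65 FPKM in WT_control. The WT_PEG libraries were the lowest and overlapped neither other group, while 708RNAi_PEG and WT_control overlapped. Under PEG its mean FPKM was 1.56-fold higher in the RNAi line than in wild-type (log2 fold change 0.37 ± 0.09 SE, limma adjusted p = 0.0089). Leaving out WT_PEG replicate 1 ended that call (limma adjusted p = 0.068). Under PEG in wild-type its log2 fold change of -0.18 ± 0.09 (SE) was not called (limma adjusted p = 0.074), but it was called as lower with libraries scaled to equal medians (limma adjusted p = 0.037), with scaling to total recovered reads (0.011) and without WT_control replicate 2 (0.040).

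DREB1H (LOC_Os09g35020) had 0.896, 1.03 and 1.21 FPKM in 708RNAi_PEG, 0.518 and 0.861 FPKM in WT_PEG, and 0.495, 0.319 and 0.395 FPKM in WT_control. These are 29 to 54, 18 and 28, and 12 to 18 reads per library in 708RNAi_PEG, WT_PEG and WT_control. The groups did not overlap, but WT_PEG replicate 2 lay near the lowest 708RNAi_PEG library and WT_PEG replicate 1 near the highest WT_control library. DREB1H rose 1.71-fold under PEG in wild-type in mean FPKM (log2 fold change 0.26 ± 0.10 SE, limma adjusted p = 0.040). The call ended with no filter on low values, with equal medians, with only the 2 groups compared, with limma-voom on the recovered reads, and without WT_control replicate 2, WT_control replicate 3 or WT_PEG replicate 2 (highest limma adjusted p = 0.37). On recovered reads its log2 fold change was 0.73 ± 0.34 (SE), and without WT_PEG replicate 2 it was 0.12. In the RNAi line against PEG-treated wild-type DREB1H was not called (0.28 ± 0.10 SE, limma adjusted p = 0.058), though it was without WT_PEG replicate 2 (0.43, limma adjusted p = 0.024). Without WT_PEG replicate 1 the log2 fold change was 0.13 (limma adjusted p = 0.42).

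The other DREB1 members were scarce. DREB1G (LOC_Os02g45450, chromosome 2) had 0.922, 0.724 and 0.948 FPKM in 708RNAi_PEG, 0.505 and 0.360 FPKM in WT_PEG, and 1.13, 0.544 and 0.925 FPKM in WT_control. Both WT_PEG libraries, with 24 and 16 reads, were below every library of the other groups, and the means of 0.865 ± 0.122 FPKM in 708RNAi_PEG and 0.865 ± 0.296 FPKM in WT_control (SD, n = 3 each) differed by far less than their spread. It stood below the filter. Tested without the filter, it was called as lower under PEG (log2 fold change -0.37 ± 0.13 SE, limma adjusted p = 0.047) and not called in the RNAi comparison (0.38 ± 0.13 SE, limma adjusted p = 0.081). With limma-voom on the recovered reads it fell under PEG in wild-type (log2 fold change -0.93 ± 0.36 SE, limma adjusted p = 0.034) and was higher in the RNAi line than in PEG-treated wild-type (1.01 ± 0.36 SE, limma adjusted p = 0.046). The authors' deposited table gives p-values of 0.0549 and 0.0542 for these 2 comparisons. All these values rest on the same 2 WT_PEG libraries.

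DREB1E (LOC_Os04g48350, chromosome 4) had 0.247, 0.281 and 0.296 FPKM in 708RNAi_PEG, 0.305 and 0.271 FPKM in WT_PEG, and 0.316, 0.446 and 0.535 FPKM in WT_control. The untreated libraries were the highest, with 13, 19 and 23 reads, and the treated ones lay together. With limma-voom on the recovered reads it was not called under PEG in wild-type (log2 fold change -0.53 ± 0.35 SE, limma adjusted p = 0.19) nor in the RNAi comparison (-0.068 ± 0.37 SE, limma adjusted p = 0.91). DREB1F (LOC_Os01g73770, chromosome 1), which is known in rice from salt and drought stress, had 4, 2 and 3 reads in 708RNAi_PEG, 2 and 1 reads in WT_PEG, and 0, 0 and 2 reads in WT_control. A count of 0 allows up to 3 reads, which is 0.0818 and 0.0791 FPKM in WT_control replicates 1 and 2, so no fold is given for it. Tested without the filter, DREB1F was called as higher (limma adjusted p = 0.019) and DREB1E as lower (limma adjusted p = 0.029) in 708RNAi_PEG than in WT_control, on these few reads.

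The summed FPKM of the 7 DREB1 genes was 60.9 ± 6.56 in 708RNAi_PEG, 26.1 ± 2.93 in WT_PEG and 7.51 ± 1.16 in WT_control (SD over 3, 2 and 3 libraries). DREB1C made up 85.2% ± 0.916 of this sum in 708RNAi_PEG, 73.9% ± 1.40 in WT_PEG and 9.02% ± 1.01 in WT_control. DREB1A made up 8.29% ± 0.736 in 708RNAi_PEG, 16.3% ± 1.85 in WT_PEG and 49.8% ± 2.45 in WT_control. Among these 7 genes the leading one was thus DREB1C in all 5 treated libraries and DREB1A in all 3 untreated ones. The sum leaves out other DREB1 loci. Of these, DREB1I and DREB1J were at 8.65 and 6.95 FPKM in WT_PEG and at 10.9 and 12.1 FPKM in 708RNAi_PEG. Both stood above DREB1A in the treated groups, so the share of DREB1C among all DREB1 genes would be smaller.

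**Figure D2:**
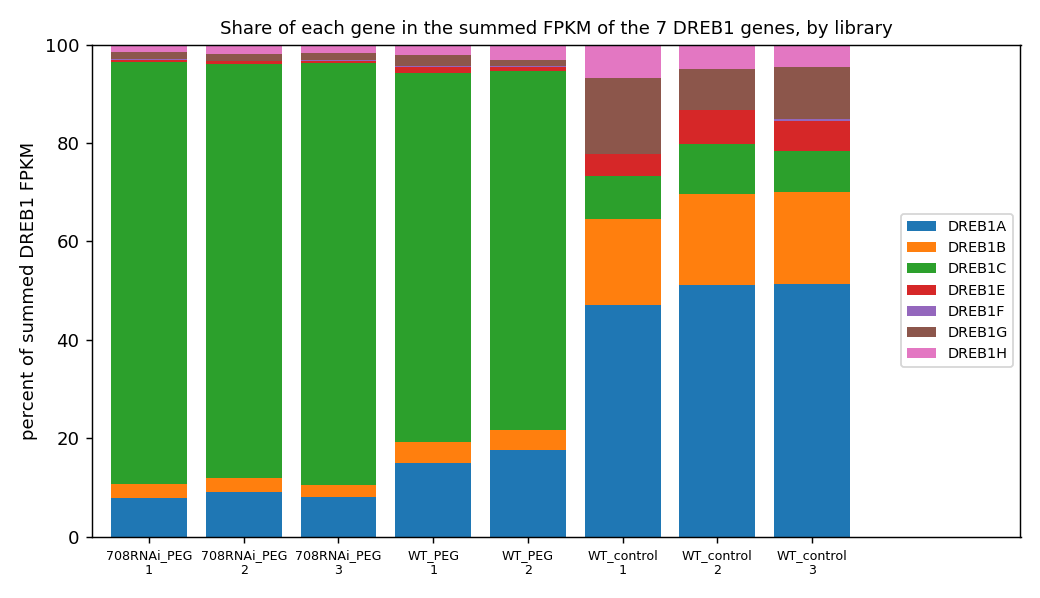
Share in percent (y axis) of each of the 7 DREB1 genes in their summed FPKM, 1 stacked bar per library, with the 3 libraries of 708RNAi_PEG, the 2 of WT_PEG and the 3 of WT_control from left to right. DREB1C fills 73.0% to 85.8% of each treated bar and 8.17% to 10.1% of each untreated bar.

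Both DREB2 genes rose under PEG in wild-type, and DREB2A alone of the pair was called in the RNAi comparison. The difference between the genes was not tested. DREB2A (LOC_Os01g07120, chromosome 1), a drought-inducible activator, had 12.01, 12.9 and 12.5 FPKM in 708RNAi_PEG, 8.92 and 9.08 FPKM in WT_PEG, and 2.23, 2.27 and 1.94 FPKM in WT_control. The groups were well apart. DREB2A rose 4.19-fold under PEG in wild-type (log2 fold change 1.67 ± 0.06 SE, limma adjusted p = 8.3e-09) and was 1.39-fold higher in the RNAi line than in PEG-treated wild-type (0.43 ± 0.06 SE, limma adjusted p = 0.00048). Both calls were kept in each of the 16 alternative settings.

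DREB2B (LOC_Os05g27930, chromosome 5) had 15.9, 16.1 and 17.3 FPKM in 708RNAi_PEG, 15.6 and 16.0 FPKM in WT_PEG, and 11.8, 11.2 and 12.4 FPKM in WT_control. The treated groups overlapped each other, and both lay above the untreated one. DREB2B rose 1.34-fold under PEG in wild-type (log2 fold change 0.39 ± 0.06 SE, limma adjusted p = 0.00013), a value that was 0.22 with quantile normalization. It was not called in the RNAi line against PEG-treated wild-type (0.050 ± 0.055 SE, limma adjusted p = 0.52), and the sign of that value turned with quantile normalization and with scaling to total recovered reads.

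In all, 4 of the 6 tested genes rose under PEG in wild-type and 0 fell. Of all tested genes 38.6% rose and 36.8% fell, 75.3% in all (70.0% with limma-voom on recovered reads, 54.9% with no filter on low values). The median log2 fold change of the 6 was 0.33, against 0.02 over all tested genes. In the RNAi line against PEG-treated wild-type 3 of the 6 were higher and 0 lower. Of all tested genes 21.3% were higher and 16.4% lower, 37.6% in all (33.2% with limma-voom, 23.6% with no filter), and the medians were 0.32 for the 6 and 0.01 over all. These counts include DREB1H and DREB1C, which reached the filter only where they were high. DREB1C reached it only in PEG-treated libraries, so its place in the count under PEG was partly set by the treated groups. In the RNAi comparison DREB1C reached the filter in both groups. The counts describe the genes without setting them apart from the rest.

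Scaling to total recovered reads moved the median of all tested genes under PEG from 0.02 to -0.10 and their split to 6496 higher and 9320 lower, beside 8076 and 7702 as reported. In the RNAi comparison it moved the split to 3430 higher and 4411 lower, beside 4451 and 3428. Over the 16 alternatives the smallest log2 fold change of DREB2A was 1.56 under PEG and 0.36 in the RNAi comparison. The WT_PEG libraries enter both comparisons on opposite sides, so a low value there raises one difference and lowers the other.

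**Figure D3:**
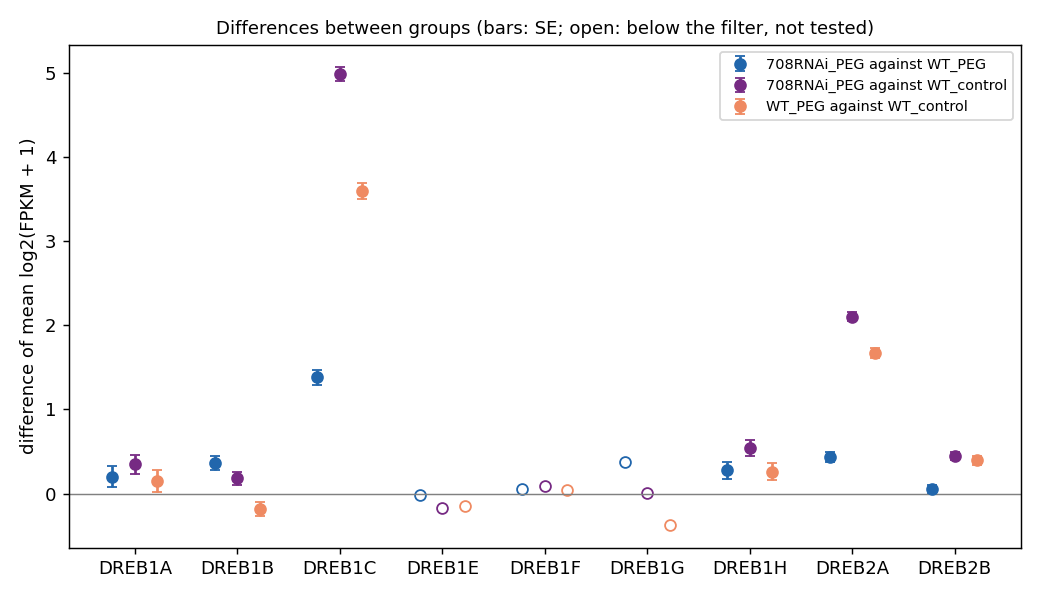
Difference of mean log2(FPKM + 1) (y axis) for each of the 9 genes in 3 comparisons, with bars for the SE of the limma fit and open points for the 3 genes below the filter. DREB1C lies at 1.38, 4.98 and 3.60 and DREB2A at 0.43, 2.10 and 1.67 in 708RNAi_PEG against WT_PEG, 708RNAi_PEG against WT_control and WT_PEG against WT_control, while the other genes stay within 0.55 of 0.

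Against untreated wild-type, where genotype and treatment both differ, 5 of the 6 tested genes were higher in 708RNAi_PEG and 0 lower, while of all tested genes 41.0% were higher and 40.0% lower, 81.1% in all (77.3% with limma-voom, 61.8% with no filter). Scaling to total recovered reads moved that split to 6670 higher and 10678 lower, beside 8592 and 8386, and the median of all tested genes from 0.01 to -0.16. DREB1C was 77.4-fold higher in mean FPKM (log2 fold change 4.98 ± 0.08 SE, limma adjusted p = 4.0e-11), DREB2A 5.81-fold and DREB1H 2.59-fold. DREB1H entered the test only through 708RNAi_PEG, where it was high, so its place in the count of 5 was partly set by that group. The same holds for DREB1C, which entered only through the PEG-treated libraries. DREB2B was 1.39-fold and DREB1A 1.34-fold higher, and DREB1B was not called (log2 fold change 0.18 ± 0.08 SE, limma adjusted p = 0.052). The call of DREB1A (limma adjusted p = 0.018) was lost with scaling to total recovered reads and without WT_control replicate 1, WT_control replicate 2 or 708RNAi_PEG replicate 3 (highest limma adjusted p = 0.13). DREB1B was called as higher with quantile normalization, with the replicate block, and without WT_control replicate 3 or 708RNAi_PEG replicate 2 (lowest limma adjusted p = 0.0039).

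By mean FPKM, which is scaled to gene length, the order of the levels ran DREB1C, DREB2B, DREB2A, DREB1A, DREB1B, DREB1H, DREB1G, DREB1E and DREB1F in both 708RNAi_PEG and WT_PEG. In WT_control it ran DREB2B, DREB1A, DREB2A, DREB1B, DREB1G, DREB1C, DREB1E, DREB1H and DREB1F. Neighbours whose libraries overlapped were DREB1H and DREB1G in 708RNAi_PEG, and DREB1G and DREB1C as well as DREB1E and DREB1H in WT_control. The order depends on the length used. The FPKM of DREB2A rest on a length of 4822 bases, while its span in RefSeq is 2044 bases. Whether the longer locus holds other sequence was not checked. Levels per RefSeq span assume that every read counted for a locus fell within that span, which was not checked either. Per RefSeq span the level of DREB2A would be 29.4 in 708RNAi_PEG, 21.2 in WT_PEG and 5.07 in WT_control, beside 57.3, 21.3 and 0.741 for DREB1C, and DREB2A would then stand above DREB2B in both treated groups. In WT_control DREB2A would stand above DREB1A at 3.75, and DREB1H at 0.350 above DREB1E at 0.268. By group mean the place of DREB1C, first in both treated groups and sixth in WT_control, was the same with either length. In WT_PEG, however, its level per RefSeq span was 21.27 ± 1.99, beside 21.24 ± 0.27 for DREB2A (SD, n = 2). These means differed by far less than their spread, so the first place in WT_PEG was not settled on that length.

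Beyond these 9 loci, a list of 10 further DREB and related ERF loci was examined, of which 7 passed the filter. Under PEG in wild-type 7 of 7 rose, and in the RNAi line against PEG-treated wild-type 5 stood higher and 1 lower. Over all tested genes these shares were 38.6% higher under PEG, and 21.3% higher and 16.4% lower in the RNAi comparison. DREB1I, DREB1J and DREB2C entered the test only through PEG-treated libraries, so their place in the count of 7 was partly set by those groups. With no filter on low values 7 of 10 rose under PEG and 0 fell. RefSeq carries the names of 3 of the listed loci. DREB1J (LOC_Os08g43200), a neighbour of DREB1I on chromosome 8, was at 12.1 FPKM in 708RNAi_PEG, 6.95 FPKM in WT_PEG and 0.325 FPKM in WT_control, and was higher in the RNAi line (limma adjusted p = 0.00050) and under PEG (1.4e-08). DREB1I (LOC_Os08g43210) was at 10.9, 8.65 and 0.610 FPKM in 708RNAi_PEG, WT_PEG and WT_control and was likewise higher in the RNAi line (limma adjusted p = 0.032) and under PEG (9.8e-09), but in the RNAi line not with no filter on low values (0.068). DREB2C (LOC_Os08g45110) was the one gene of the list that was lower in the RNAi line, at 2.54 FPKM in 708RNAi_PEG, 3.33 FPKM in WT_PEG and 0.0567 FPKM in WT_control (log2 fold change -0.29 ± 0.07 SE in the RNAi comparison, limma adjusted p = 0.011). With limma-voom on recovered reads that call was lost (limma adjusted p = 0.055). It rose under PEG in wild-type (limma adjusted p = 7.7e-09), where the untreated libraries held 8 reads of it in all.

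Of 6 listed upstream regulators 2 rose and 2 fell under PEG in wild-type, beside shares over all tested genes of 38.6% and 36.8%. RefSeq carries the names of 3 of the 6, of which 2 rose and 0 fell. The identity of the loci that fell was thus not checked. In the RNAi line 2 of 6 stood higher and 0 lower, beside 21.3% and 16.4% of all tested genes. Of the 3 with names 1 stood higher and 0 lower. MYBS3, a MYB factor that represses DREB1 genes late in the cold response of rice, rose to 39.2 FPKM in WT_PEG, against 19.5 FPKM in WT_control (limma adjusted p = 1.4e-07), and was not called in the RNAi comparison (limma adjusted p = 0.055), though it was as higher with limma-voom on recovered reads (0.045). MPK3, a stress-activated protein kinase, was at 29.8 FPKM in 708RNAi_PEG, 16.8 FPKM in WT_PEG and 7.76 FPKM in WT_control, and was higher in the RNAi line (limma adjusted p = 2.5e-06) and under PEG (3.3e-08).

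Stress genes listed as likely carriers of the dehydration-responsive element rose in 14 of 14 tested loci under PEG in wild-type. Their promoters were not examined, so whether each carries the element was not checked. The median log2 fold change was 4.20. Over all tested genes 38.6% rose and the median was 0.02. RAB16B, RAB16C, RAB16D and LEA3-2 would not have passed the filter on their untreated libraries alone. Their place in the count of 14 was thus partly set by the treated groups. With no filter on low values 15 of 15 rose. In the RNAi line 7 of 14 stood higher and 1 lower, with a median of 0.29, beside 21.3% higher and 16.4% lower over all tested genes and a median of 0.01. With limma-voom on recovered reads 11 of 15 were called as higher and 1 as lower. LEA3-1, which encodes a late embryogenesis abundant protein, was at 1658 FPKM in 708RNAi_PEG, 1338 FPKM in WT_PEG and 2.41 FPKM in WT_control (log2 fold change 8.64 ± 0.16 SE under PEG, limma adjusted p = 1.3e-10). Its rise was the largest of the list on log2(FPKM + 1) but not as a ratio of mean FPKM, which was 554 for LEA3-1, 678 for RAB16B and 671 for LEA3-2. LIP9, a dehydrin gene known as a target of DREB1A in rice, was at 1809 FPKM in 708RNAi_PEG, 1115 FPKM in WT_PEG and 113 FPKM in WT_control (log2 fold change 0.70 ± 0.07 SE in the RNAi comparison, limma adjusted p = 0.00012). RAB16C, a dehydrin gene, was at 243 FPKM in 708RNAi_PEG, 168 FPKM in WT_PEG and 0.997 FPKM in WT_control (0.53 ± 0.07 SE, limma adjusted p = 0.00050). Its relative RAB16D, also on chromosome 11, was the locus lower in the RNAi line, at 17.2 FPKM in 708RNAi_PEG, 22.2 FPKM in WT_PEG and 0.329 FPKM in WT_control (-0.35 ± 0.04 SE, limma adjusted p = 0.00029).

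**Figure D4:**
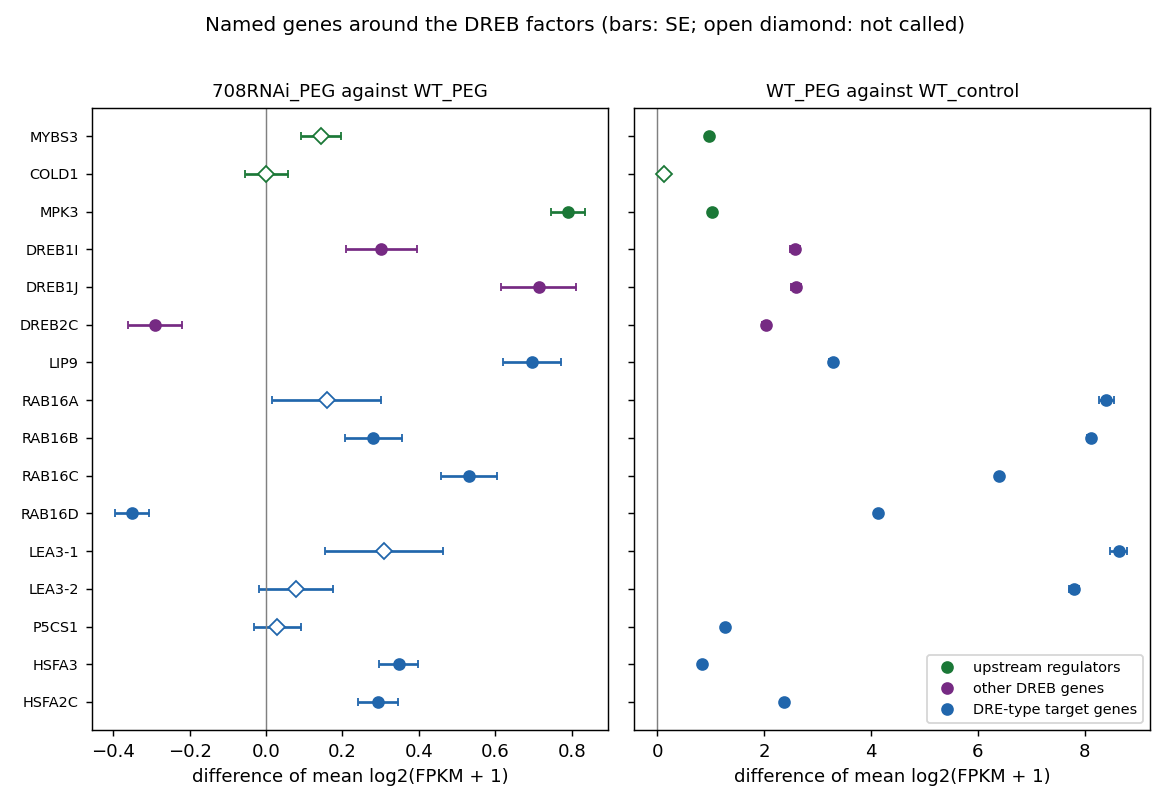
Difference of mean log2(FPKM + 1) (x axis, a different range in each panel) for the 16 tested genes of the 3 lists that RefSeq names, with the RNAi line against wild-type under PEG on the left and wild-type under PEG against untreated on the right; bars are the SE of the limma fit and open diamonds genes not called. All 10 named genes of the list of likely targets lie above 0 on the right, while on the left DREB2C at -0.29 and RAB16D at -0.35 lie below 0.

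Markers of seedling tissues and of seed were measured beside these results. All 6 listed leaf loci and all 3 listed root loci had reads in each group. RefSeq carries the names of 0 of these leaf loci and 2 of these root loci, and the identity of the others was not checked. Summed over the leaf loci the level was 7634 to 8200 FPKM in 708RNAi_PEG, 9486 to 10327 FPKM in WT_PEG and 17492 to 20930 FPKM in WT_control. Over the root loci it was 50.1 to 53.8 FPKM in 708RNAi_PEG, 63.5 to 64.3 FPKM in WT_PEG and 422 to 455 FPKM in WT_control. Seed storage loci had reads in 8 of 8 cases in 708RNAi_PEG, 7 of 8 in WT_PEG and 5 of 8 in WT_control, the rest being at 0. Their summed reads were 1352 to 2341 per library in 708RNAi_PEG, 119 to 220 in WT_PEG and 143 to 158 in WT_control. Under PEG in wild-type 6 of 6 leaf and 3 of 3 root loci fell, and of 5 tested seed loci 0 were called by limma (0 at an unadjusted p under 0.05, and 1 of 7 with limma-voom). In the RNAi line against PEG-treated wild-type 5 of 5 tested seed loci were higher, with 3 of 6 leaf loci and 1 of 3 root loci lower. GLUA1, GLUB2 and GLB1 reached the filter only in 708RNAi_PEG, so their place among the tested seed loci was partly set by that group. With no filter on low values 8 of 8 seed loci were called as higher. These markers thus changed between groups in which DREB1C and DREB2A also changed, and their part in the DREB differences was not tested.

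For each tested gene the most alike genes were taken by the distance between log2(FPKM + 1) values centred on the mean of the 8 libraries. The closest to DREB1C was LOC_Os03g64260, at a distance of 0.425 with a Pearson correlation of 0.999, and the closest to DREB2A was LOC_Os02g01100, at a distance of 0.145 with a correlation of 0.999. The points of these correlations are the same 8 libraries in 3 groups, and the tables pair neither locus with a name.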

How the data were processed

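RNA was measured in 8 rice seedling libraries. Per the file headers, the authors deposited FPKM per locus and library, their group means, log2 fold changes and p-values for 2 comparisons. It is unknown whether those p-values are adjusted. The submitters' processing notes list HISAT2, featureCounts and DESeq2 among other tools, without their roles. Genome build, annotation and strand setting: not given in the sources used here. Groups and replicate numbers came from the titles.

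Whole reads were recovered from the steps of the authors' deposited FPKM. Of 33817 loci above 0, 33816 gave whole reads within 0.03 reads. This was the limit that the search itself accepted, so it is no check of the recovered reads. Per library these reads equal 87.0% to 91.3% of the number by which the FPKM were divided in WT_control. In WT_PEG they equal 97.3% and 98.3%, and in 708RNAi_PEG 101.4% to 103.3%. The groups did not overlap, so the scale of the FPKM differs with the groups in every comparison. This bears most on small folds, and scaling to total recovered reads is the alternative that takes it out.

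The test ran in limma 3.58.1 (R 4.3.3) on log2(FPKM + 1) of loci reaching 1 FPKM in 2 or more libraries: 20943 loci, 1 model of 3 groups with a variance trend, 5 residual degrees of freedom, two-sided, Benjamini-Hochberg adjusted. Such fold changes understate the change of low genes. Folds in words are ratios of mean FPKM. No library was dropped or imputed.

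All 9 members are named. From each other list the text names at most 4 called genes with the largest change in a comparison, and only those that RefSeq (assembly ASM3414082v1, used for names, spans and neighbours) carries on the same chromosome, which held for 25 of 48 loci and for 9 of 9 members. The plot of listed genes shows every tested one that RefSeq names, also outside that rule. The members, lists and tests were chosen with earlier results of these data known.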

Additional observations from a re-analysis of the deposited data

How the results depend on the processing

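The number of DREB genes called was recomputed under 16 alternatives. It stayed at 3 or 4 under PEG in wild-type (4 as reported), and ranged from 2 to 4 in the RNAi comparison (3) and from 3 to 7 in 708RNAi_PEG against WT_control (5). In that last comparison scaling to total recovered reads left 3, and leaving out each library gave 3 to 6. Leaving out each library gave 3 to 4 under PEG and 2 to 4 in the RNAi comparison. Equal counts hid changes of direction. Under PEG 4 genes were higher and 0 lower as reported. It was 3 higher and 1 lower with no filter on low values and with limma-voom (DREB1G lower). The same split came with equal medians, with scaling to total recovered reads and without WT_control replicate 2 (DREB1B lower). With no filter, 708RNAi_PEG against WT_control gave 6 higher and 1 lower. DREB1H was no longer tested with scaling to total recovered reads and without 708RNAi_PEG replicate 2 or 3, since it then failed the filter. Among the tested genes the sign reversed in 3 cases, none of them called. DREB1A under PEG had a log2 fold change of -0.039 without WT_PEG replicate 2 (range -0.039 to 0.33 over the libraries left out). DREB2B in the RNAi comparison had -0.038 with quantile normalization and -0.012 with scaling to total recovered reads. Signs also turned for genes below the filter. Over the alternatives DREB1G in 708RNAi_PEG against WT_control ran from -0.12 to 0.11, and DREB1E in the RNAi comparison from -0.068 to 0.0037. Of the other fits of tested genes 256 kept direction and call, 12 lost and 8 gained a call.

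Limma-voom on recovered reads, with at least 10 reads in at least 2 libraries, was added after seeing the data; it tested 26622 genes. The edgeR and DESeq2 fits planned on recovered reads were not run, since the deposited values are FPKM. Same-numbered libraries share only a number: the correlations of their deviations from group means ran from -0.23 to 0.36 over 7 pairs. With the replicate block 4, 3 and 6 genes were called under PEG, in the RNAi comparison and in 708RNAi_PEG against WT_control. The counting step of 1 read limits DREB1E, DREB1F, DREB1G and DREB1H most.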
